A study of Mus musculus with 12 samples.

Results

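Voltage-gated sodium and calcium channel genes were examined in prefrontal cortex and whole striatum of mice with free access to ethanol. A gene was a member when its single symbol in the platform annotation was that of a sodium channel alpha or beta subunit (Scn) or of a calcium channel pore-forming, alpha2delta or beta subunit (Cacna1, Cacna2d, Cacnb). The rule found 27 of the 18193 genes with a single symbol, and it used no measured value. Of the 27 genes, 11 encode sodium channel subunits (8 pore-forming, 3 beta) and 16 encode calcium channel subunits (9 pore-forming, 4 alpha2delta, 3 beta). They were read by 70 probe sets, and the brightest probe set of a gene, by its mean over the 12 arrays, stood for it.

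The mice were outbred Swiss males. They were offered 3 bottles, with 5% ethanol, 10% ethanol and water, at an age of 6 weeks and were 22 weeks old at the end. Free access lasted 10 weeks and was followed by 2 weeks without ethanol, 2 weeks of renewed access, 2 weeks in which both ethanol bottles held 0.005 g/L of bitter quinine, and 1 further week of free choice. Counted from 6 weeks of age, the stages through quinine already reach the labelled 22 weeks, and the further week falls after them. Inflexible drinkers kept their preference for ethanol at every stage, quinine included, and had a mean blood ethanol of 113 ± 11.3 mg/dL per the labels, which do not state the kind of error. Light drinkers, which drank more water than ethanol, had 48 ± 13.3 mg/dL. The 4 groups were inflexible and light drinkers in striatum and inflexible and light drinkers in prefrontal cortex, with 3 arrays each. Every group had been offered ethanol and quinine, and water-only controls and heavy drinkers were not analysed here. The labels give 1 RNA pool concentration a group, so the 3 arrays may be hybridisations of 1 pool, and each p-value covers the spread between arrays only. In prefrontal cortex the labelled concentration was higher for inflexible than for light drinkers, while in striatum the classes had nearly the same. Its part in the class differences was not tested.

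Voltage-gated sodium channels open within the first moments of a depolarisation and carry the upstroke of the action potential, while their beta subunits set gating and anchor the pore in the membrane. Voltage-gated calcium channels turn depolarisation into calcium entry. The L type couples it to gene expression and dendritic signals, the P/Q, N and R types to transmitter release, and the T type to firing near the resting potential. The alpha2delta and beta subunits carry the pore to the surface and tune it. Striatal projection neurons, which make up most striatal neurons, rest at a very negative potential, and prefrontal cortex holds mainly excitatory pyramidal neurons with a minority of interneurons.

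The deposited log2 values had nearly the same median on each array, 3.12 to 3.14, and the number of arrays limits the precision. The arrays fell apart by their 18 hybridisation control probe sets, which read transcripts added to every sample. These averaged 8.36 to 9.30 on 5 arrays (inflexible striatum 1 and 3, light striatum 1, inflexible prefrontal 2 and light prefrontal 2) and 6.47 to 7.06 on the other 7. No label gives a batch, and the split was drawn at the widest gap in these values. Results are therefore given also with the control level as a block. The tissue labels matched their markers: all 13 measured striatal projection neuron genes were called higher in striatum, and of 11 cortical excitatory neuron genes 6 were called lower there and 1 higher. In bulk tissue, fewer cells of a type and less RNA per cell cannot be told apart.

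Most of the channel genes were read above the floor of the arrays. Cacna1c, Cacnb1, Cacnb2, Cacna1a and Cacna1h were less clearly so, with mean log2 values of 4.14 to 4.38. The mean over the 12 arrays was above a log2 value of 4 for 18 of the 27 members (66.7%), against 36.2% of all genes. The remaining 9 lay at or below that level. They were Scn7a, which encodes an atypical channel tied to sensing of extracellular sodium, Scn9a, Scn10a and Scn11a, which encode channels known from peripheral sensory neurons, Cacna1d (L type), Cacna1f (the retinal L type), Cacna1g (T type), Cacna1s (the skeletal muscle L type) and Cacna2d4 (known from retina). Of 6 skeletal muscle markers measured, 0 had a mean above log2 4. Differences in such dim genes are understated by the summary of the probes.

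Between drinking classes in prefrontal cortex, 1 channel gene changed. Scn4b, which encodes the beta subunit whose tail can block the open pore and give resurgent sodium current, was higher in inflexible drinkers. It had log2 values of 5.46, 4.90 and 5.42 in inflexible prefrontal cortex, against 4.22, 3.81 and 4.13 in light prefrontal cortex. All arrays of inflexible drinkers lay above all arrays of light drinkers. The log2 difference was 1.21 ± 0.19 (SE, n = 3 arrays each), a 2.31-fold difference, with a limma adjusted p of 0.0208. Across all genes 1.04% were called in this comparison, and 1.99% of the genes with a mean above log2 4. The median log2 difference was 0.01 over the 27 members and 0.00 over all genes.

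The Scn4b call rested on few arrays. Leaving out any 1 of 5 of the 6 prefrontal arrays (all but inflexible array 2) took its adjusted p to between 0.0556 and 0.0998, while over all 12 fits without 1 array the log2 difference lay between 1.09 and 1.39. With the replicate number as a block over all 12 arrays its adjusted p was 0.0596 and 0 members were called, where 0.594% of all genes were. In the 6 prefrontal arrays alone with that block it was 0.0148, and 2 members were called, Scn4b and Cacna2d3 (adjusted p = 0.0341), where 2.74% of all genes were. Replicate 2 is the high-control array in both prefrontal groups. Within the low-control arrays the log2 difference was 1.27, and within the high-control arrays it was 1.09.

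With the control level as a block, 4 members were called higher in inflexible prefrontal cortex and 0 lower, against 3.19% of all genes and 6.31% of those above log2 4. Scn4b had an adjusted p of 0.000772 in this fit. Cacna2d3, an alpha2delta subunit, had log2 values of 5.90, 5.48 and 5.99 in inflexible prefrontal cortex, against 5.43, 4.75 and 5.38 in light prefrontal cortex. Its groups did not overlap and it differed by 0.60 ± 0.07 with the block (adjusted p = 0.00353), but by 0.60 ± 0.23 without it (adjusted p = 0.513). Cacna1e encodes the R-type pore. Its log2 values were 6.74, 6.48 and 6.87 in inflexible prefrontal cortex, against 6.52, 6.09 and 6.53 in light prefrontal cortex. The remaining call was Scn3b, a beta subunit held to the pore without a covalent bond, with 6.45, 6.16 and 6.43 against 6.21, 5.58 and 6.07 in the same order of groups. In both genes the groups overlapped through inflexible array 2, the high-control array, and the differences with the block were 0.32 ± 0.05 (adjusted p = 0.0160) for Cacna1e and 0.39 ± 0.07 (adjusted p = 0.0282) for Scn3b. Without the block their adjusted p-values were 0.785 and 0.692. Within the low-control and high-control arrays Cacna2d3 differed by 0.54 and 0.73, Cacna1e by 0.28 and 0.39, and Scn3b by 0.30 and 0.58.

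The other 23 members passed neither fit in prefrontal cortex. Among the sodium pores, Scn1a, the main pore of fast-spiking interneurons, differed by 0.20 ± 0.25. Scn2a, the pore of immature and excitatory axons, differed by -0.04 ± 0.14, and Scn8a, the pore of the axon initial segment and nodes, by -0.03 ± 0.14. Scn3a, best known from embryonic brain, differed by 0.12 ± 0.18. Of these intervals the widest, that of Scn1a, ran from -0.37 to 0.76, so moderate differences in either direction remained within error. The beta subunit Scn2b differed by 0.10 ± 0.20.

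Calcium pore genes were likewise uncalled in prefrontal cortex without the block. Cacna1a (P/Q type) differed by -0.08 ± 0.15, Cacna1b (N type) by -0.12 ± 0.09, Cacna1c (L type) by 0.04 ± 0.11 and Cacna1h (T type) by 0.10 ± 0.18. The dim T-type gene Cacna1g had 3.94, 3.59 and 4.00 in inflexible prefrontal cortex, against 4.05, 4.19 and 4.38 in light prefrontal cortex. Its groups did not overlap, yet the difference of -0.37 ± 0.12 had an adjusted p of 0.364. Cacna2d1 differed by -0.27 ± 0.18 and Cacna2d2 by 0.25 ± 0.12. Both encode alpha2delta subunits that bind gabapentin. The beta subunit genes Cacnb1, Cacnb2 and Cacnb4 differed by -0.16 ± 0.24, 0.23 ± 0.17 and -0.17 ± 0.09. The dim genes Scn7a, Scn9a, Scn10a, Scn11a, Cacna1d, Cacna1f, Cacna1s and Cacna2d4 differed by between -0.09 and 0.07. The plot of the class differences shows Scn4b apart from the other members in prefrontal cortex.

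**Figure D1:**
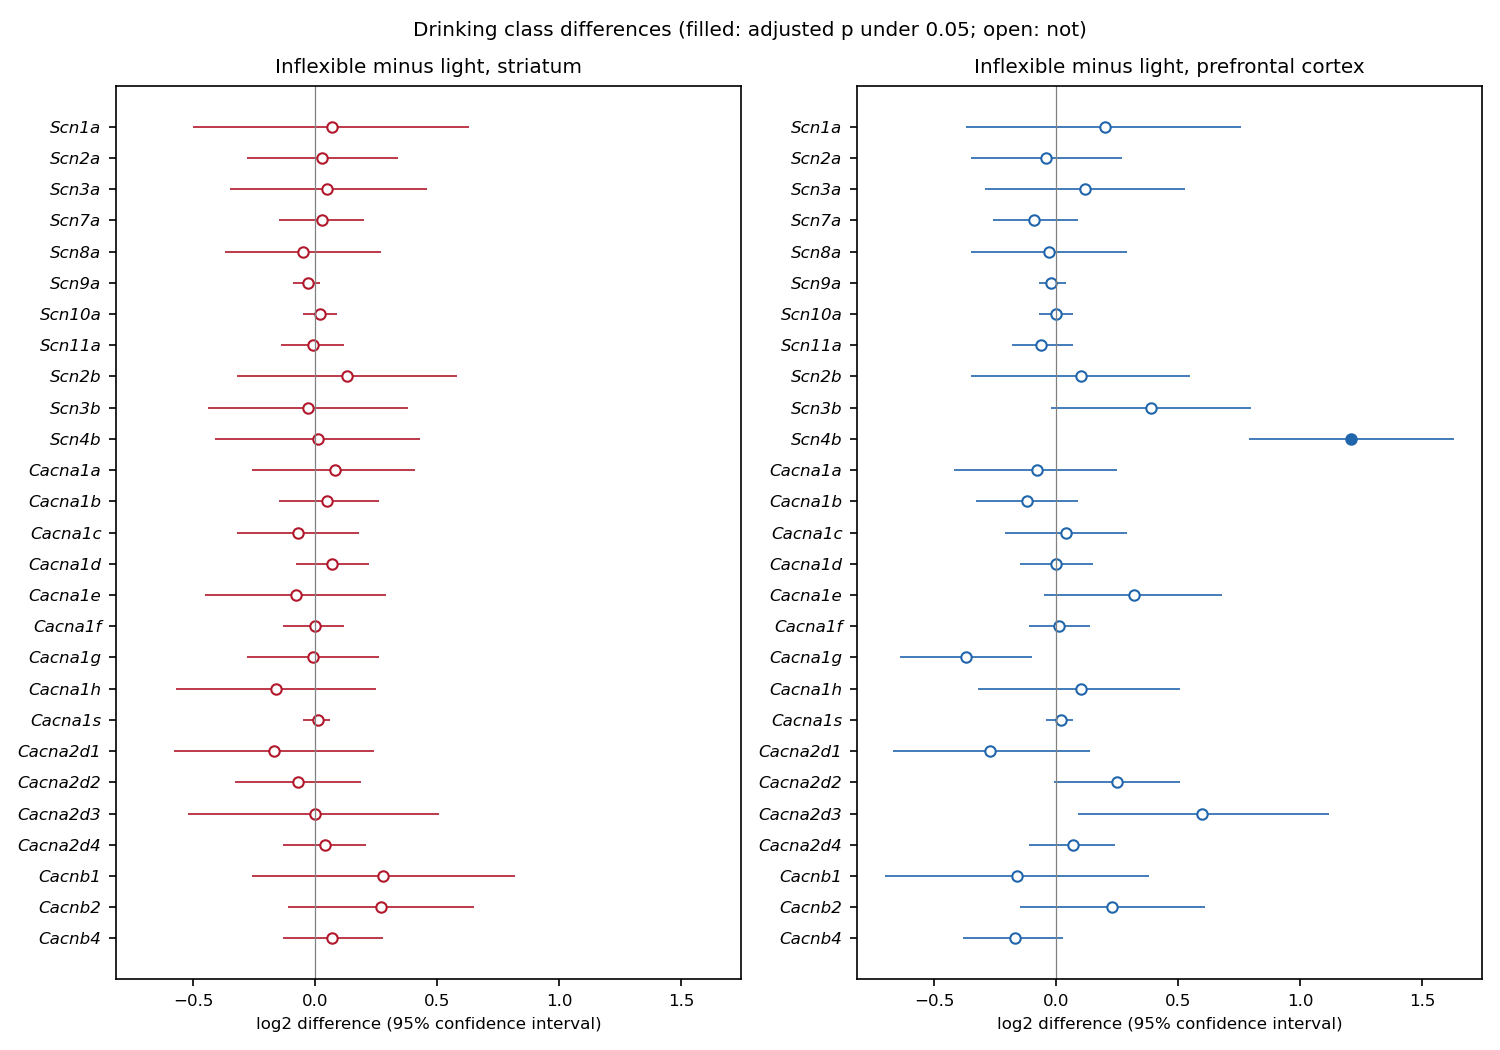
Log2 difference of inflexible minus light drinkers (x axis, with 95% confidence intervals) for the 27 channel genes (y axis) in striatum (left) and prefrontal cortex (right), 3 arrays a group. Scn4b in prefrontal cortex, at 1.21, is the single filled point, which marks an adjusted p under 0.05.

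Markers of striatal neurons and of myelin moved with the class in prefrontal cortex, where 1.04% of all genes were called. Of 13 striatal projection neuron genes 7 were called higher in inflexible drinkers, with a median log2 difference of 0.90, and their mean level was 5.09 to 5.18 on the inflexible and 4.26 to 4.35 on the light prefrontal arrays. The same list averaged 6.55 to 6.62 on the inflexible and 6.10 to 6.18 on the light striatal arrays. Of 10 oligodendrocyte and myelin genes 5 were called higher in inflexible prefrontal cortex (median 1.01), with a mean level of 5.80 to 5.96 on the inflexible and 4.75 to 4.97 on the light arrays. The choroid plexus marker Ttr differed by 6.25, and of 11 cortical excitatory neuron genes 1, Neurod6, was called higher, with a list median of -0.24. With the control level as a block 8 of the 13 striatal projection neuron genes and 9 of the 10 oligodendrocyte and myelin genes were called higher. Across all genes 3.19% were called in that fit. Of the cortical excitatory neuron genes Neurod6 was then called higher (0.50) and 2 were called lower, Cux2 at -0.95 (adjusted p = 0.000349) and Lamp5 at -0.53 (adjusted p = 0.0328). Scn4b, Cacna2d3, Cacna1e and Scn3b all had higher mean levels in striatum than in prefrontal cortex, as described for the regions. The part of these cell types in the differences of the channel genes was not tested.

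In striatum no channel gene was called between drinking classes. The count was 0 of 27 by limma, with 0 of 27 also at an unadjusted p under 0.05, against 0.022% of all genes called. Scn4b had log2 values of 6.48, 6.76 and 6.24 in inflexible striatum, against 6.38, 6.36 and 6.72 in light striatum. The groups overlapped fully, and the difference was 0.01 ± 0.19 with a 95% confidence interval of -0.41 to 0.43, which does not reach the 1.21 seen in prefrontal cortex. Cacna2d3 had 6.18, 6.51 and 5.89 in inflexible striatum, against 5.90, 6.33 and 6.36 in light striatum. It also overlapped, with a difference of 0.00 ± 0.23.

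Without the block, the largest striatal class differences by estimate were in calcium channel beta subunits, which were called neither with nor without it. Cacnb1 had 4.93, 4.05 and 4.31 in inflexible striatum, against 4.49, 4.08 and 3.88 in light striatum, a difference of 0.28 ± 0.24. With the block the Cacnb1 difference was 0.12 ± 0.14, and within the low-control and high-control arrays it was 0.07 and 0.13. Cacnb2 had 4.55, 4.35 and 4.33 in inflexible striatum, against 3.89, 4.30 and 4.23 in light striatum. Its arrays did not overlap between classes, but the gap was narrow and the difference was 0.27 ± 0.17 (adjusted p = 1.0), and 0.21 ± 0.17 with the block. With the control level as a block 0 members were called, against 0.11% of all genes. The smallest p in that fit belonged to Scn2b, which differed by 0.28 ± 0.06 (adjusted p = 0.193). The remaining members differed by between -0.17 (Cacna2d1) and 0.13 (Scn2b) without the block, and the widest interval among them, that of Scn1a, ran from -0.50 to 0.63.

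Whether the class difference itself was unlike in the regions was tested by the striatal minus the prefrontal difference. No member was called (0 of 27, with 1 at an unadjusted p under 0.05), against 0.44% of all genes. Scn4b had the largest value, -1.20 ± 0.27 (adjusted p = 0.158), and Cacna2d3 followed with -0.61 ± 0.33 (adjusted p = 0.999). With the control level as a block Scn4b was called at -1.08 ± 0.15 (adjusted p = 0.0140), as the single member, against 1.33% of all genes. With arrays weighted by their quality the Scn4b value was -1.30 with an adjusted p of 0.0114. The Scn4b call thus depended on the setting. For the other members a difference between the regions in the response was not shown.

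**Figure D2:**
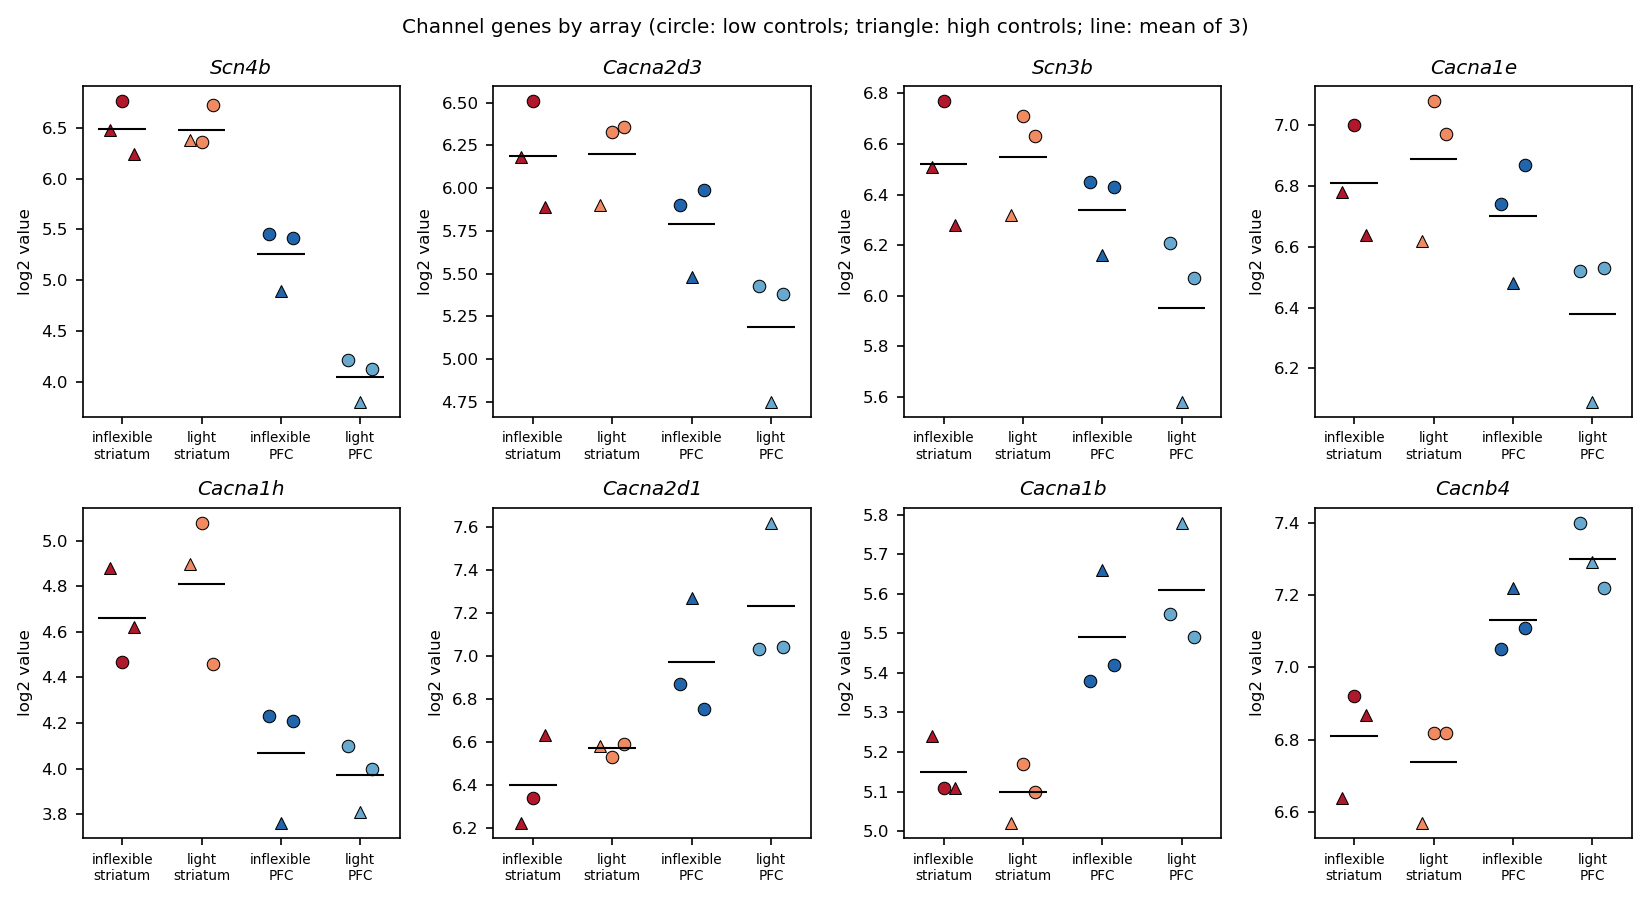
Log2 value (y axis, own scale for each gene) of 8 channel genes on every array, by group (x axis), with circles for low-control and triangles for high-control arrays and a line at the mean of 3 arrays. The light prefrontal arrays hold the lowest 3 values of Scn4b, at 3.81 to 4.22, and the high-control arrays are the lowest of their prefrontal groups for Scn4b, Cacna2d3, Scn3b and Cacna1e.

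The regions differed in more channel genes than the drinking classes did. Averaged over drinking class, 3 members were higher in striatum (Scn4b, Cacna1h and Cacna2d3) and 3 were lower (Cacna1b, Cacna2d1 and Cacnb4), so that 6 of 27 members were called. Across all genes 5.38% were called, and 10.5% of those with a mean above log2 4. With the control level as a block 12 members were called, 7 higher and 5 lower, against 11.2% of all genes and 22.2% of those above log2 4. The median log2 difference over the 27 members was 0.01, beside 0.00 over all genes. Calls in both directions occurred among the calcium pores and among the alpha2delta subunits. All 10 oligodendrocyte and myelin genes were also higher in striatum (median 0.93), beside the 13 striatal projection neuron genes (median 1.83), and the part of these cell types in the channel differences was not tested.

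Among the sodium channel pores no gene passed without the block, and Scn1a and Scn2a were lower in striatum with it. Scn1a had a lowest, median and highest value of 5.61, 5.66 and 6.12 over the 6 striatal arrays, against 5.83, 6.11 and 6.71 over the 6 prefrontal arrays. The ranges overlapped, and the difference was -0.44 ± 0.18 (adjusted p = 0.318) without and -0.53 ± 0.09 (adjusted p = 0.00793) with the block. A further Scn1a probe set, with a mean of 4.84, differed by -0.17 ± 0.13 without the block. Scn2a had 7.77, 7.91 and 8.11 in striatum, against 7.95, 8.02 and 8.37 in prefrontal cortex. It differed by -0.19 ± 0.10 (adjusted p = 0.532) without and by -0.24 ± 0.03 (adjusted p = 0.00218) with the block. Without the block a further Scn2a probe set, with a mean of 6.94 over the 12 arrays, differed by -0.28 ± 0.12. Another, with a mean of 5.45, differed by -0.1 ± 0.14. Scn8a, with medians of 6.83 in striatum and 7.14 in prefrontal cortex, differed by -0.33 ± 0.10 (adjusted p = 0.142). A further probe set of the gene, with a mean of 4.90, differed by 0.02 ± 0.15. Others, with means of 5.72 and 4.13, differed by -0.30 ± 0.16 and -0.31 ± 0.20 and were not called. Scn3a went the other way by estimate, at 0.29 ± 0.13 (adjusted p = 0.394).

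The dim sodium pores held little difference between the regions. Scn7a had 3.03 to 3.10 on the striatal arrays, against 3.11 to 3.42 on the prefrontal arrays. The ranges did not overlap, and the difference of -0.20 ± 0.06 had an adjusted p of 0.0967. Scn9a, Scn10a and Scn11a differed by -0.02 ± 0.02, 0.01 ± 0.02 and -0.03 ± 0.04, and all of their values lay between 2.81 and 3.15.

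Among the sodium channel beta subunits, Scn4b was the member with the largest difference between the regions. Its lowest, median and highest values were 6.24, 6.43 and 6.76 in striatum, against 3.81, 4.56 and 5.46 in prefrontal cortex. Every striatal array lay above every prefrontal array, and the difference was 1.83 ± 0.13, a 3.56-fold difference (n = 6 arrays each, adjusted p = 5.84e-05). It was 2.43 ± 0.19 in light drinkers and 1.23 ± 0.19 in inflexible drinkers. The call held on leaving out each of the 12 arrays in turn, with adjusted p-values of 9.93e-05 to 0.000354.

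Scn3b was called between the regions with the block alone. It had 6.28, 6.57 and 6.77 in striatum, against 5.58, 6.18 and 6.45 in prefrontal cortex, and differed by 0.39 ± 0.13 (adjusted p = 0.188) without and by 0.45 ± 0.05 (adjusted p = 0.000817) with it. Scn2b, whose product is bound to the pore by a disulphide bridge as that of Scn4b is, had 6.70, 7.01 and 7.37 in striatum, against 6.57, 7.02 and 7.22 in prefrontal cortex. These ranges nearly coincided. The difference was 0.09 ± 0.14 without and 0.16 ± 0.04 (adjusted p = 0.0391) with the block.

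Among the calcium channel pores, the N-type gene was lower and a T-type gene higher in striatum. Cacna1b had 5.02, 5.11 and 5.24 in striatum, against 5.38, 5.52 and 5.78 in prefrontal cortex. The ranges did not overlap, and it fell by 0.42 on the log2 scale (SE 0.07, adjusted p = 0.00498). Its representing probe set is of a kind (suffix x_at) that may share probes with other sequences. A further Cacna1b probe set, with a mean of 5.30, fell by 0.37 (SE 0.04, adjusted p = 0.000392). Another, with a mean of 5.10, differed by -0.21 ± 0.21 and was not called (adjusted p = 0.854). Cacna1h had 4.46, 4.75 and 5.08 in striatum, against 3.76, 4.05 and 4.23 in prefrontal cortex. Again no array overlapped, and the difference was 0.72 ± 0.13 (adjusted p = 0.0130). In the low-control arrays alone it was 0.48, and in the high-control arrays alone 1.05, each with 1 array in at least 1 group. Both genes kept their call on leaving out each array in turn.

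The other calcium pores were not called between the regions without the block. The R-type gene Cacna1e had 6.62, 6.87 and 7.08 in striatum, against 6.09, 6.53 and 6.87 in prefrontal cortex. It was higher by 0.37 ± 0.04 with the block (adjusted p = 0.000342), and by 0.31 ± 0.12 without it (adjusted p = 0.270). The P/Q-type gene Cacna1a differed by -0.13 ± 0.11, and a further probe set of it, with a mean of 4.06, by 0.03 ± 0.27. The L-type genes Cacna1c and Cacna1d differed by 0.16 ± 0.08 (adjusted p = 0.477) and -0.14 ± 0.05 (adjusted p = 0.198). The T-type gene Cacna1g differed by -0.29 ± 0.09 (adjusted p = 0.118), opposite in sign to Cacna1h. Cacna1f and Cacna1s, both dim, differed by 0.01 ± 0.04 and -0.01 ± 0.02.

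The alpha2delta genes split by subunit. Cacna2d3 had 5.89, 6.26 and 6.51 in striatum, against 4.75, 5.46 and 5.99 in prefrontal cortex, with an overlap in which inflexible striatum 3 (5.89) and light striatum 1 (5.90) lay no higher than inflexible prefrontal 1 and 3 (5.90 and 5.99). The difference was 0.71 ± 0.16 (adjusted p = 0.0446), and 0.79 ± 0.05 with the block (adjusted p = 2.98e-05). Without the block the call was kept on leaving out 2 of the 12 arrays and lost on leaving out each of the other 10, with adjusted p-values up to 0.113, and with the replicate number as a block the adjusted p was 0.104. Cacna2d1 had 6.22, 6.55 and 6.63 in striatum, against 6.75, 7.04 and 7.62 in prefrontal cortex. Every striatal array lay below every prefrontal array. It fell by 0.62 (SE 0.13, adjusted p = 0.0274), a 1.53-fold lower level. The call was kept on leaving out 6 of the 12 arrays and lost on leaving out the other 6 (adjusted p up to 0.0712). A further Cacna2d1 probe set, with a mean of 5.82, differed by -0.49 ± 0.14 and was not called (adjusted p = 0.119).

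Cacna2d2 was just outside the threshold without the block. It had 4.63, 4.81 and 5.04 in striatum, against 4.23, 4.50 and 4.67 in prefrontal cortex, a difference of 0.34 ± 0.08 (adjusted p = 0.0505), and with the block it was higher by 0.38 ± 0.04 (adjusted p = 0.000690). The dim Cacna2d4 differed by 0.04 ± 0.05.

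Of the calcium channel beta subunits, Cacnb4 was lower in striatum. Mutation of this gene causes the lethargic mouse, which has absence seizures. It had 6.57, 6.82 and 6.92 in striatum, against 7.05, 7.22 and 7.40 in prefrontal cortex. No array overlapped, and it fell by 0.44 (SE 0.06, adjusted p = 0.00378). The call held on leaving out each array in turn. A further Cacnb4 probe set, with a mean of 6.25, fell by 0.34 (SE 0.04, adjusted p = 0.00136). Another, with a mean of 5.18, differed by -0.40 ± 0.23 and was not called (adjusted p = 0.6). Cacnb1 and Cacnb2, best known from skeletal muscle and heart, differed by 0.20 ± 0.17 and 0.17 ± 0.12 and were not called in either fit.

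**Figure D3:**
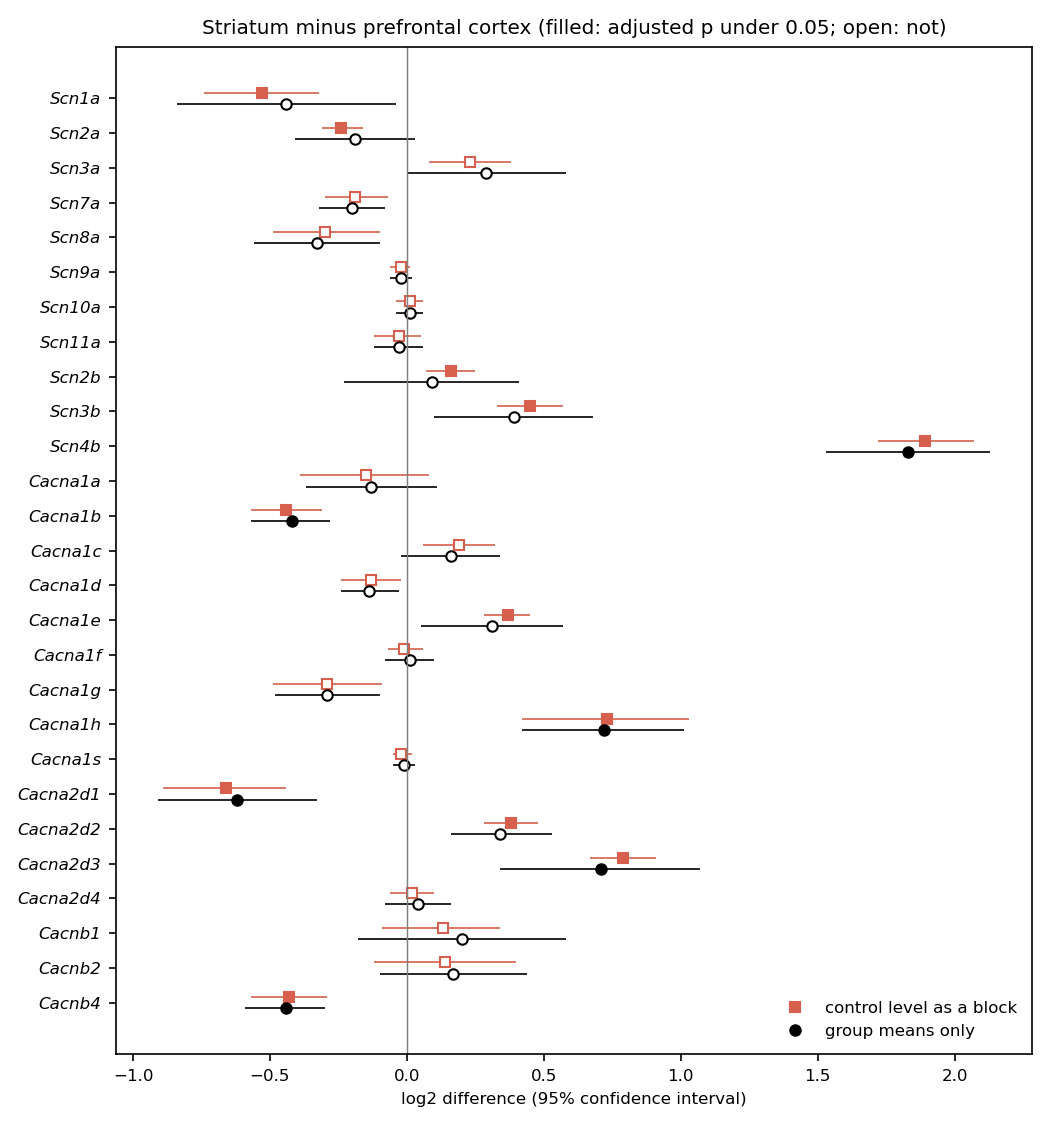
Log2 difference of striatum minus prefrontal cortex (x axis, with 95% confidence intervals) for the 27 channel genes (y axis), from group means only (black circles) and with the control level as a block (red squares), 6 arrays a region. Filled symbols have an adjusted p under 0.05, and Scn4b lies farthest to the right, at 1.83 and 1.89.

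The region comparison was also read within each drinking class. In light drinkers 6 members were called, against 4.68% of all genes: Scn4b, Cacna2d3, Cacna1h and Cacna2d2 higher in striatum, by 2.43, 1.01, 0.84 and 0.50, and Cacna1b and Cacnb4 lower, at -0.51 and -0.57. In inflexible drinkers 1 member was called, Scn4b (adjusted p = 0.0179), against 1.20% of all genes. The inflexible values of the other genes were 0.40 for Cacna2d3, 0.59 for Cacna1h, 0.19 for Cacna2d2, -0.34 for Cacna1b and -0.32 for Cacnb4. Each had the sign it had in light drinkers and was smaller in size. These genes were picked by their call in light drinkers, which by itself favours smaller values in the other class. No conclusion is drawn from the smaller size. The difference between these class-specific values is the test of unlike class differences given above, which called no member without the block. In light drinkers 10 members were called with the control level as a block, 6 higher and 4 lower, against 9.85% of all genes. In inflexible drinkers 4 were called with the block, against 3.20% of all genes. Scn4b (1.35, adjusted p = 0.000703) and Cacna2d3 (0.57, adjusted p = 0.00575) were higher in striatum, and Scn1a (-0.68, adjusted p = 0.0370) and Scn2a (-0.25, adjusted p = 0.0293) were lower. In light drinkers Scn1a differed by -0.38 with the block (adjusted p = 0.144).

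Promoter windows are shown for 4 members to set beside the region results: Scn4b, which differed most, Scn2b, the protein-coding gene next to it on chromosome 9, which differed little, Cacna2d3, which was higher in striatum, and Cacna1b, which was lower. Each runs 5′ to 3′ on the gene's strand from 250 bases before to 50 bases after the annotated start (RefSeq, GRCm38.p6). Capitals mark the GC box letters GGGCGG on either strand (CCGCCC on the other), and the TATA box letters TATAAA were searched likewise, with overlapping matches counted singly.
Scn4b, chr9:45138374-45138673, plus strand: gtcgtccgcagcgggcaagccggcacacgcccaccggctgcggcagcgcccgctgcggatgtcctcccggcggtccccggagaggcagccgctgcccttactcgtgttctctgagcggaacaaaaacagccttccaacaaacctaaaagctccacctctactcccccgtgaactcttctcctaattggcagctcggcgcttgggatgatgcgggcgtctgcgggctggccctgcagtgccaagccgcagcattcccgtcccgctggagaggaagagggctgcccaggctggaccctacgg
Scn2b, chr9:45117626-45117925, plus strand: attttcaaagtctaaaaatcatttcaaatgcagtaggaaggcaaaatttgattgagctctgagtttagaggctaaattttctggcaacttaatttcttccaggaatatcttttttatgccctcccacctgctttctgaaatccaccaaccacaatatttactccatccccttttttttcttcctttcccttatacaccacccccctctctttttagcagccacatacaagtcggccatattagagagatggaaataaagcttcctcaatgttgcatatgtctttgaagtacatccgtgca
Cacna2d3, chr14:29721815-29722114, minus strand: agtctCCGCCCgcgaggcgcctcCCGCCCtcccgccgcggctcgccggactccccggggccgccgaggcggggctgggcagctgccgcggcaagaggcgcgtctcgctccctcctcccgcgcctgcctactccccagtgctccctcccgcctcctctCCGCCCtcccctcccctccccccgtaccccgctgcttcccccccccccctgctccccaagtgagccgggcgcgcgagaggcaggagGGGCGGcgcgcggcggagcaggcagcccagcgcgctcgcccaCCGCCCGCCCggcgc
Cacna1b, chr2:24763103-24763402, minus strand: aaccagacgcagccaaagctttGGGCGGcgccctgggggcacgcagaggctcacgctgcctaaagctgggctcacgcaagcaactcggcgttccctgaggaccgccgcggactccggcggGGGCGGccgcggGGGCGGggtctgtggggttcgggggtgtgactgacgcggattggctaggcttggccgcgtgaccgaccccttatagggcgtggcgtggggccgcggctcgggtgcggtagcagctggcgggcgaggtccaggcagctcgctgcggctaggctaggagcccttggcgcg

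The 4 windows differed in base composition. G and C made up 66.3% of the Scn4b window, 38.3% of the Scn2b window, 81.3% of the Cacna2d3 window and 72.3% of the Cacna1b window, beside a median of 52.7% over 32851 windows of this length. The Cacna2d3 window held 6 GC box matches and the Cacna1b window 3, while Scn4b and Scn2b held 0, and none of the 4 held the TATA box letters. Of all windows 35.7% held the GC box letters and 13.6% the TATA box letters. The table gave windows for 21 of the 27 members, 30 windows in all, and 12 of the 21 genes had the GC box letters in any of their windows. This count of genes is not comparable with the 35.7% of single windows, because a gene with several windows has more chances of a match.

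Genes that sit side by side did not always go together. Scn2b and Scn4b are adjacent protein-coding genes on chromosome 9 in GRCm38.p6, and differed between the regions by 0.09 and 1.83. On chromosome 2, Scn3a and Scn2a are adjacent and differed by 0.29 and -0.19. Scn1a, Scn9a and Scn7a follow one another there and differed by -0.44, -0.02 and -0.20. None of these chromosome 2 genes was called without the block, and Scn9a and Scn7a were dim. Scn10a and Scn11a, adjacent on chromosome 9, were both dim.

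Channel genes were also compared between arrays with high and low hybridisation controls. With group means and control level in 1 fit, 13 of 27 members were called between high-control and low-control arrays, 6 higher and 7 lower, against 33.5% of all genes. Among the 18 members with a mean above log2 4, 11 were called, 4 higher and 7 lower, against 53.1% of all genes at that level. Higher in the high-control arrays were the sodium pores Scn1a (0.51 ± 0.10), Scn2a (0.30 ± 0.03) and Scn3a (0.37 ± 0.07), the beta subunit gene Cacnb1 (0.47 ± 0.10) and the dim genes Cacna1f and Cacna2d4. Lower were the sodium beta subunits Scn2b (-0.45 ± 0.04), Scn3b (-0.39 ± 0.05) and Scn4b (-0.37 ± 0.08), and Cacna2d3 (-0.51 ± 0.05), Cacna1e (-0.36 ± 0.04), Cacna2d2 (-0.23 ± 0.05) and Cacna1c (-0.19 ± 0.06). All 3 sodium beta subunits thus went down and 3 of the 8 sodium pores went up on the same arrays. Calls also leaned downward among all 6593 genes with a mean above log2 4, with 815 higher and 2688 lower, so the lower calls are not particular to these subunits. The origin of the split was not tested, and 2 of the 3 inflexible striatal arrays were high-control against 1 of 3 in every other group.

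**Figure D4:**
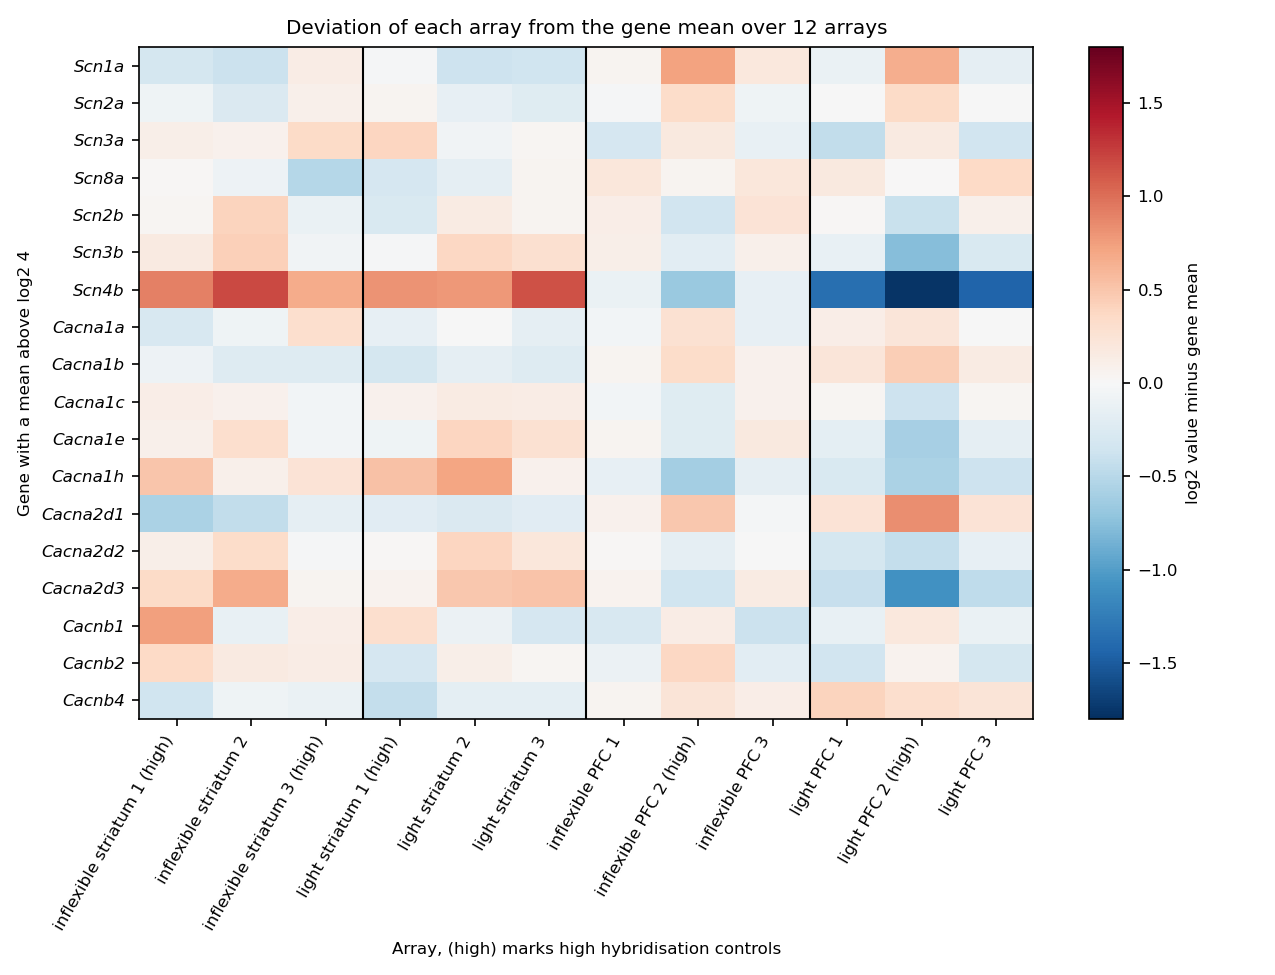
Deviation of each array (columns, by group) from the gene's mean over the 12 arrays, in log2 units (colour), for the 18 channel genes with a mean above log2 4 (rows). The light prefrontal arrays are darkest blue for Scn4b, and the prefrontal high-control arrays are red for Scn1a and Cacna2d1 and blue for Scn3b and Cacna2d3.

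Genes that work with the channels were read from 5 lists. Between drinking classes 0 genes of any of the 5 lists were called by limma in prefrontal cortex or in striatum: 8 calcium channel gamma and AMPA receptor auxiliary subunits, 14 regulators of calcium channels, 15 partners of sodium channels, 10 related cation channels and 9 genes of calcium release from the endoplasmic reticulum. Across all genes 1.04% were called in prefrontal cortex and 0.022% in striatum. The median log2 differences of the 5 lists lay between -0.14 and -0.01 in prefrontal cortex and between -0.07 and 0.05 in striatum. With the control level as a block, 4 of these genes were called in prefrontal cortex, against 3.19% of all genes. The calcium channel regulator Rem2 was higher by 0.46 ± 0.09 in inflexible drinkers and Stac2 differed by -0.53 ± 0.11. The calcium release genes Ryr3 and Orai2 were higher by 0.84 ± 0.13 and 0.41 ± 0.06.

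Between the regions some of these partners were called, where 5.38% of all genes were, and 10.5% of those above log2 4. Of the gamma and auxiliary subunits 1 of 8 was higher in striatum, Cacng4 (0.54 ± 0.09), which encodes an auxiliary subunit of AMPA receptors. Of the calcium channel regulators 1 of 14 was higher and 3 were lower: Rem2, a small GTPase that restrains calcium channels, at 0.92 ± 0.07, against Rims1 and Snap25, which tie channels to vesicle release, at -0.58 ± 0.12 and -0.51 ± 0.08, and Stac2, an adaptor of L-type channels, at -0.35 ± 0.08. Of the sodium channel partners 1 of 15 was higher and 2 were lower. Nedd4l, a ubiquitin ligase that removes sodium channels from the membrane, differed by 0.31 ± 0.06, the fibroblast growth factor homologue Fgf12, which binds the tail of sodium channels, by -0.80 ± 0.16, and the membrane anchor Ank2 by -0.27 ± 0.04. With the control level as a block 2 regulators were called higher, Akap5 (0.53 ± 0.05) among them, and 3 lower. Of the sodium channel partners 2 were then called higher and 3 lower, Nrcam (-0.36 ± 0.05) among the latter. Across all genes 11.2% were called in that fit, and 22.2% of those above log2 4.

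Of the 9 calcium release genes 3 were higher in striatum and 0 lower. The ryanodine receptor Ryr3 differed by 1.08 ± 0.13, the calcium entry channel Orai2 by 0.44 ± 0.07 and the store sensor Stim2 by 0.39 ± 0.08. With the block the ryanodine receptor Ryr2 was also called, lower in striatum at -0.34 ± 0.09 (adjusted p = 0.0458). Of the 10 related cation channels 0 were called in the region comparison, and Unc80 (-0.40 ± 0.07) and Hcn3 (-0.12 ± 0.03) were called lower with the block.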

How the data were processed

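RNA was extracted with TRIzol from whole striatum and prefrontal cortex and labelled with biotin for 1-colour oligonucleotide arrays, per the labels' protocols. The authors deposited 1 table of probe set values, used as log2 values; the submitters' processing notes name RMA, which corrects background, normalises and summarises probes, and the affy package, without versions. The log base was read from the range of the values, and the compression of low values understates the differences of dim genes. Which test the authors used is not given in the sources used here.

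Of 45101 probe sets, 64 control probe sets were left out and 45037 were tested. The platform annotation gave 34945 a single symbol, 932 several and 9160 none. The gene IDs of 34741 matched RefSeq, which changed 0 symbols. Each gene was represented by its probe set of highest mean. No column of the table went unmapped (0 unmapped), and 0 pairs of arrays were identical.

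The model, fitted with limma 3.58.1 (lmFit and eBayes) under R 4.3.3, held 1 mean for each of the 4 groups over the 12 arrays and left 8 residual degrees of freedom. Tests were two-sided. Benjamini-Hochberg adjustment ran over all 45037 probe sets, and an adjusted p under 0.05 was a call. The step was tested on simulated data. Tables and plots used Python 3.11.15 with pandas 2.3.3, numpy 2.4.6 and matplotlib 3.10.9. The level of log2 4 is a round value used only to describe how brightly a gene was read.

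Every member is named. From the other lists up to 4 called genes with the smallest p were named for each comparison. For the region comparison, further probe sets of a member were given where called or of opposite sign above log2 4. The remaining probe sets above log2 4 of Scn1a, Scn2a, Scn8a, Cacna1b, Cacna2d1 and Cacnb4 were given too. Between drinking classes further probe sets were not described. None of them was called, and some above log2 4, such as 1 of Scn2a in prefrontal cortex, had the opposite sign. Members and lists were chosen with earlier results of these data known.

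Same-numbered arrays were checked for pairing by the correlation of their deviations from the group means. It was 0.622 to 0.849 between the prefrontal groups, while differently numbered prefrontal arrays ranged between -0.827 and 0.796. Inflexible prefrontal array 1 correlated at 0.796 with light array 3 and at 0.741 with light array 1, all of them low-control arrays. Array 2 is the high-control array in both prefrontal groups. The check therefore cannot tell pairing by number from a shared control level. In striatum same-numbered arrays correlated at -0.637 to 0.262 and differently numbered ones at -0.734 to 0.766. The -0.637 was between a high-control and a low-control array, so the check cannot decide on pairing by number there. Across the regions same-numbered arrays correlated at -0.769 to -0.12 in inflexible and -0.662 to 0.602 in light drinkers. Each of these inflexible pairs set a high-control against a low-control array. The sample titles name no mouse, and the region tests took all arrays as independent. The alternatives were the replicate block, the control level as a block or alone, quantile normalisation, a level filter, each region or class alone, array weights, a minimum fold of 1.5, averaging each gene's probe sets and leaving out each array. The replicate block in the prefrontal arrays alone was added after the data were seen.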

Additional observations from a re-analysis of the deposited data

How the results depend on the processing

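Counts of called channel genes moved with the handling of the arrays. Fits within 1 control level leave 1 array in at least 1 group, so their counts are left out here. In prefrontal cortex, inflexible minus light drinkers, 1 member was called in the 12 arrays. The count was 0 with the replicate block and 4 with the control level as a block. It was 0 in the region alone, 2 with array weights and 0 at a minimum fold of 1.5. It was 0 to 1 without 1 array each, and 2 with the replicate block in the prefrontal arrays alone. In striatum 0 members were called in every setting counted, without 1 array each included (0 to 0). For the difference between the regions, 0 were called, but 1 with the control block and 1 with array weights, and 0 to 0 without 1 array each. For striatum minus prefrontal cortex 6 were called, 12 with the control block, 14 with array weights and 1 at the minimum fold. The count was 1 in inflexible drinkers only, and 4 to 8 without 1 array each. The cause of these shifts was not tested, except that the arrays left out and the minimum fold leave fewer arrays or ask for a larger difference.

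Over all probe sets the prefrontal count of 372 became 206 with the replicate block, 1119 with the control block, 1243 in the low-control and 0 in the high-control arrays, 215 above log2 4, 198 in the region alone, 2955 with array weights, 13 at the minimum fold, 899 with the replicate block in the prefrontal arrays alone, and 157 to 394 without 1 array each. The striatal count of 5 became 34 with the control block, 2 above log2 4 and 1 in the region alone. It was 0 at the minimum fold, and 2 to 9 without 1 array. The count of 141 for the difference between the regions became 51 with the replicate block and 443 with the control block. It was 800 with array weights, 8 at the minimum fold, and 62 to 161 without 1 array. The count of 1720 for striatum minus prefrontal cortex became 3601 with the control block, 3246 in the low-control and 0 in the high-control arrays, 4136 with array weights, 81 at the minimum fold, 348 in inflexible drinkers only, and 1286 to 1826 without 1 array.

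Of 2367 comparisons of a member between settings, 0 turned the sign of a called difference, and 188 of the 2164 that were uncalled both times changed sign. The replicate block changed no other call of a member than those of Scn4b in prefrontal cortex (adjusted p = 0.0596) and Cacna2d3 between the regions (adjusted p = 0.104), apart from the added call of Cacna2d3 in the prefrontal arrays alone (adjusted p = 0.0341). The region alone was not run for the comparisons between regions. The 3 arrays a group may share 1 pool, so the spread between mice is unknown, and the precision of dim genes is limited by their nearness to the floor.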

Other observations

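The remaining marker lists gave these counts for inflexible minus light drinkers in prefrontal cortex, where 1.04% of all genes were called, and 3.19% with the control level as a block. Of 5 hippocampal genes 3 were called higher (Spink8 by 0.87, Prox1 by 0.68 and Zbtb20 by 1.02, median of the list 0.68). Of 11 interneuron genes 2 were called lower, Dlx1 at -0.35 and Npy at -0.59. Of 8 genes of thalamus and septum 1 was called higher (Trpc4, 0.38), of 8 microglial genes 1 was called lower (Ctss, -0.36), and of 8 choroid plexus genes 1 was called higher (Ttr), joined with the control level as a block by Clic6 (0.49) and Otx2 (0.20). None of the 8 astrocyte, 8 vascular, 6 oligodendrocyte precursor and 6 skeletal muscle genes was called (0 each). In striatum 0 genes of any of the 12 marker lists were called by limma without the block. Across all genes 0.022% were called there without and 0.11% with it. The fit with the control level as a block called 2 higher in inflexible striatum, the striatal projection neuron gene Pdyn (0.29) and the cortical excitatory neuron gene Lamp5 (0.80), each with an adjusted p of 0.0498. Between the regions the lists of choroid plexus (5 of 8 higher), hippocampus (3 of 5 higher), thalamus and septum (2 higher and 1 lower of 8), interneurons (1 higher and 2 lower of 11), astrocytes (2 of 8 lower) and microglia (1 of 8 lower) had called genes, and those of vascular cells, oligodendrocyte precursors and skeletal muscle had 0. Across all genes 5.38% were called between the regions, and 10.5% of those above log2 4.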
